A study of Mus musculus with 5 samples.

Results

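Broad RAP1 peaks are the 3189 regions of 120 bp or more in the study's list of 30398 RAP1 peaks, 10.5% of the list. They were chosen by the deposited length column alone. The length was drawn by the authors' peak caller from the same reads as the read values, so the reads of these peaks are described and not tested. The reads came from chromatin immunoprecipitated with an antibody to RAP1 in embryonic fibroblasts of mixed background, immortalised with SV40 large T and grown in puromycin. The series holds 2 wild-type immunoprecipitates from separate lines, 2 immunoprecipitates from separate RAP1-deleted lines, and 1 input without antibody from the same kind of cells. All lines carry the large T antigen, and the labels do not give how Rap1 was deleted or how many embryos a line came from. The list joins the libraries into a positive read set, read here as wild type, and a negative read set, read as RAP1-deleted, following the design text. Whether the input entered the negative set was not given in the sources used here. Values per library were not used here, so no value has a replicate error and no test between genotypes was made.

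RAP1 is a telomere protein that reaches chromosome ends through TRF2, and it also binds chromatin between them. In this kind of sequencing, reads from the forward strand pile up on the left of a bound site and reads from the reverse strand on the right, because each DNA fragment is read inwards from its ends. The place where a strand's reads are most frequent is its mode, and the distance from the forward to the reverse mode is related to fragment length and to the width of the bound region. A positive distance means that the reverse mode lies to the right, and a negative one means that the modes have crossed.

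The broad peaks fell into 2 arrangements. In 2060 of them (64.6%, exact 95% interval 62.9 to 66.3) the modes were crossed. In the other 1129 (35.4%) the mode distance equalled the deposited length to the base. No broad peak had a mode distance of 0 to under 120 bp. Since each uncrossed broad peak had a distance equal to its length, the minimum of 120 bp sets this empty range. The distances of the uncrossed shorter peaks lie within it. Among the 21802 peaks of 32 to under 120 bp, only 8 had crossed modes, and the mode distance equalled the length in the other 21794. Of the 2068 crossed peaks in the whole list, 99.6% were broad. Length therefore measures different things in the members: the span between the strand modes in 1129 of them, and a region wider than the modes in 2060. The median mode distance over all broad peaks was -12 bp (interquartile range -55 to 140), against 59 bp (46 to 73) in peaks of 32 to under 120 bp, so that the first median mixes the 2 arrangements. In 2882 broad peaks (90.4%) the mode distance was the distance between the highest window of each strand plus 1.

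**Figure D1:**
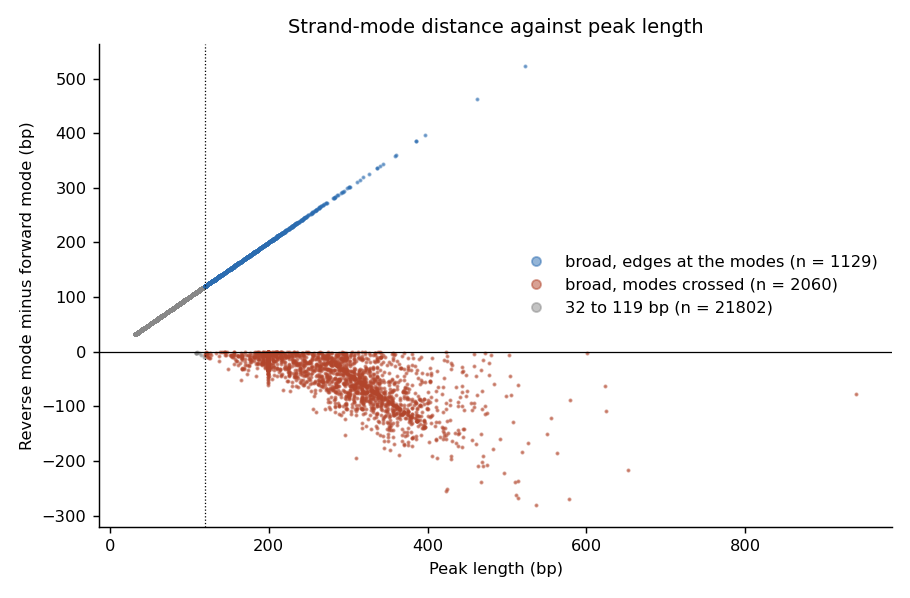
Distance from the forward to the reverse strand mode (bp) against peak length (bp), 1 point a peak, for broad peaks with edges at the modes, broad peaks with crossed modes, and peaks of 32 to under 120 bp. The dotted line marks the minimum of 120 bp; the 1129 uncrossed broad peaks lie on the diagonal, and the 2060 crossed ones lie below 0, down to -280 bp.

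Crossed peaks were the longer kind. Their median length was 292 bp (interquartile range 214 to 339), and the longest reached 940 bp. Uncrossed broad peaks had a median of 166 bp (136 to 198) and reached 523 bp. The crossed share grew with length, from 27 of 443 peaks at 120 to under 150 bp (6.09%) and 399 of 840 at 150 to under 200 bp (47.5%) to 278 of 491 at 200 to under 250 bp (56.6%). It was 91.0% of 455 peaks at 250 to under 300 bp, 98.0% of 814 at 300 to under 400 bp, and 144 of the 146 peaks of 400 bp or more.

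Over the crossed peaks as a set, left and right margins around the modes had like medians, while evenness within single peaks was not measured. In all 2060 the highest forward and the highest reverse window lay inside the peak. The reverse window stood a median of 117 bp after the left edge (91 to 129) and the forward window a median of 115 bp before the right edge (89 to 129). Between them the modes overlapped by a median of 38 bp (13 to 78). The overlap and both margins were larger in longer classes. Together these parts make up about the length of a peak, so their sum grows with the class by construction. The overlap had a median of 12 bp in crossed peaks of 150 to under 200 bp, 32 bp at 250 to under 300 bp, 75 bp at 300 to under 400 bp and 106.5 bp at 400 bp or more. The left margin over the same classes was 90 bp, 120.5 bp, 129 bp and 147.5 bp, and the right margin 84 bp, 116.5 bp, 129 bp and 156 bp. The highest window of both strands together never came closer than 49 bp to an edge. In the uncrossed peaks the highest windows stood on the first and the last base of 1110 of 1129 (98.3%).

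Crossed lengths did not form a smooth distribution. Exactly 199 bp was the length of 256 crossed peaks (12.4% of them), and the next most frequent length, 298 bp, had 20. This length was picked out after the values were seen. The peak caller's settings are not given in the sources used here, and their part in this length and in the values of these peaks was not tested. The 199 bp peaks were weak and had few negative reads. They held a median of 24 positive reads (quartiles 22 and 26, range 12 to 47), and 26 of 256 (10.2%, 6.74 to 14.5) had any negative read in the strand windows. The 200 crossed peaks up to 20 bp shorter or longer held a median of 28.5 positive reads (24 to 33), and 83 of them (41.5%, 34.6 to 48.7) had negative strand reads. The summed strand-window ratio, which is positive over scaled negative reads, was 9.67 (8.40 to 11.2) in the 199 bp peaks and 2.43 (2.25 to 2.62) in the peaks close to them in length. The median deposited rank was 27596 for the 199 bp peaks and 21038 for the peaks around them. A further, wide rise in the number of crossed peaks lay around 300 bp, with 436 peaks from 300 to under 340 bp.

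**Figure D2:**
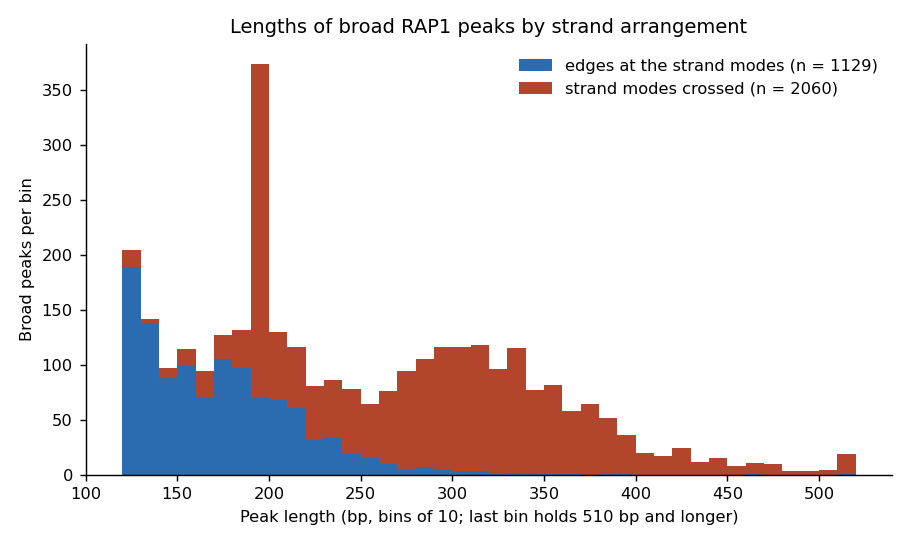
Number of broad peaks by length, in bins of 10 bp, with the uncrossed peaks (edges at the strand modes, n = 1129) and the crossed peaks (n = 2060) stacked; peaks of 510 bp or more are in the last bin. The tall bin just under 200 bp holds the 256 crossed peaks of exactly 199 bp, and above 250 bp nearly all peaks are crossed.

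Broad peaks held more reads but spread them thinner. Their median was 36 positive reads (quartiles 30 and 44, range 12 to 225), against 28 (quartiles 24 and 33, range 15 to 329) in peaks of 32 to under 120 bp. Per base this was a median of 0.141 positive reads (0.116 to 0.209), against 0.483 (0.394 to 0.600). Length is the denominator of this density, and the median length was 228 bp in broad peaks and 59 bp in the shorter ones. Since the reads per peak were higher in broad peaks, the whole deficit in density goes with the length by which they were chosen. Crossed peaks were thinner still, at 0.122 reads per bp (0.107 to 0.141), and the uncrossed broad peaks stood at 0.234 (0.192 to 0.293). The broad peaks cover 790.4 kb, 34.6% of the listed bases, with 122296 positive reads, 13.3% of the listed reads.

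The read-rich tail was larger among broad peaks. At least 50 positive reads stood in 480 of them (15.1%, 13.8 to 16.3), against 676 of the 21802 shorter peaks (3.10%, 2.87 to 3.34). In the whole list the share was 4.23%. Of the 27 peaks in the list with 100 reads or more, 12 were broad. Among peaks of 400 bp or more, 112 of 146 (76.7%) held 50 reads or more, with a median of 58 reads. Among the broad classes the lowest median, 31 reads, was at 150 to under 200 bp, the class that holds the 199 bp peaks.

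The extra reads of broad peaks lay outside the highest window. That window, the largest number of positive reads at any 1 place, had a median of 22 reads in broad peaks (19 to 26) and 26 reads in peaks of 32 to under 120 bp (23 to 30). It held a median of 58.5% of a broad peak's reads (52.5 to 68.4), against 100% (91.4 to 100) of a shorter peak's reads. At 400 bp or more it held 43.9%. The highest window had all reads in 204 broad peaks (6.40%), 201 of them crossed, and in 69.4% of peaks of 32 to under 120 bp. In the whole list it did so in 62.7%.

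**Figure D3:**
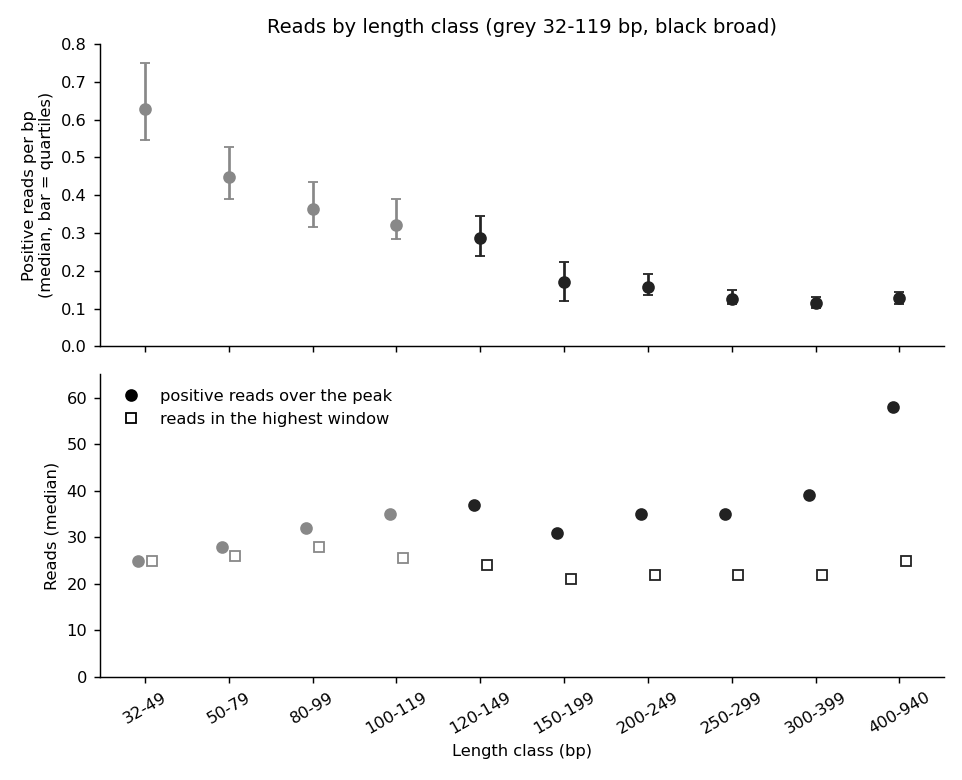
Positive reads per bp (upper panel, median with quartile bars) and median positive reads over the peak and in the highest window (lower panel) by length class in bp, with broad classes in black and the classes of 32 to under 120 bp in grey. Reads over the peak reach a median of 58 at 400 bp or more while the highest window stays between 21 and 25 reads in every broad class.

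Broad peaks stood low in the authors' ranking. In the authors' deposited list their median rank was 22393 (12625 to 28961), against 13458 (6689 to 20543) for peaks of 32 to under 120 bp. The deposited log2 fold had a median of 4.52 in broad peaks and 4.75 in the shorter ones. A deposited false discovery rate at or under 0.01 was listed for 1035 broad peaks (32.5%, 30.8 to 34.1) and for 13660 of the shorter ones (62.7%, 62.0 to 63.3), where the whole list has 55.9%. Of the 186 peaks in the list with a rate above 0.05, 142 were broad. Peaks of 29 to 31 bp also stood low, with a median rank of 20007 and 42.6% at a rate of 0.01 or less. Among broad classes the median rank ran from 14612 at 400 bp or more to 26800 at 150 to under 200 bp, the class with the 199 bp peaks. These are values from the reads that set the length, so they are given as a description. The deposited fold mostly follows the reads in the highest window. Among the named broad peaks, 28 reads there went with a fold of 4.86 and 42 reads with 5.43. The fold, and the rank and rate that move with it, are thus not findings apart from the highest window.

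The minimum of 120 bp cut through a continuous range. The 28 peaks of 120 bp held 16 to 105 positive reads (median 36) and the 29 that are 1 bp longer held 14 to 70 (median 38). Just outside, the 20 peaks 1 bp under the minimum held 27 to 72 (median 39) and the 22 peaks 2 bp under it held 16 to 55 (median 38). Crossed modes occurred in 2 of the peaks of 120 bp and 3 of those 1 bp longer, and in 0 of those 1 bp shorter and 1 of those 2 bp shorter.

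Negative reads were found at a larger share of broad peaks than of peaks of 32 to under 120 bp, but not than of the shortest peaks. The strand windows, in which the list counts forward and reverse reads separately, held at least 1 negative read for 764 broad peaks (24.0%, 22.5 to 25.5) and for 3411 peaks of 32 to under 120 bp (15.6%, 15.2 to 16.1), where the whole list has 18.8%. In peaks of 29 to 31 bp the share was 28.3% (27.1 to 29.6), above that of the broad peaks, and at 32 to under 50 bp it was 20.9% (19.97 to 21.9). Against peaks of 32 to under 120 bp, the share was higher in broad peaks on all 20 chromosomes that hold them. Over the whole peak, negative reads were listed for only 16 broad peaks (0.502%), where the whole list has 0.257%. The strand windows can count more reads than the peak itself. A 209 bp peak on X, for example, has 225 positive reads over the peak and 261 in the strand windows. Whether the negative strand reads lie inside the peaks was not tested. Broad peaks set 121430 positive against 6447 negative strand reads, a ratio of 5.67 (5.53 to 5.82) after scaling the negative set by 3.32. Peaks of 32 to under 120 bp set 644611 against 27668, a ratio of 7.02 (6.93 to 7.10). This order rests on leaving out the 5407 shortest peaks, of 29 to 31 bp, whose ratio is 3.19 (3.13 to 3.24). With them the peaks under 120 bp had a ratio of 5.73, inside the interval of the broad peaks, and the whole list has 5.72 (5.67 to 5.78). Against peaks of 32 to under 120 bp, the ratio was lower in broad peaks on 16 chromosomes and higher on 4. All intervals cover counting error only, since copies made by PCR are not independent molecules and since neighbouring peaks share their surroundings.

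Summed over each arrangement, the ratio was lower than that of peaks of 32 to under 120 bp in the crossed peaks and higher in the uncrossed ones. Crossed peaks had a ratio of 4.85 (4.70 to 4.99), with negative strand reads at 541 of 2060 (26.3%, 24.4 to 28.2). Uncrossed broad peaks had a ratio of 7.78 (7.42 to 8.16), with negative strand reads at 223 of 1129 (19.8%, 17.5 to 22.2). The uncrossed broad peaks thus had both a higher ratio and a higher share with negative reads than the peaks of 32 to under 120 bp. Not every kind of crossed peak had a low ratio: it was 9.67 in the 256 peaks of 199 bp and 8.53 in the class of 300 to under 400 bp, which is 98.0% crossed. Where negative reads were present, their number had a median of 7 in broad peaks and 7 in the shorter peaks.

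The ratio did not follow the order of the broad length classes. It was 5.34 (5.0 to 5.70) at 120 to under 150 bp, 6.14 (5.82 to 6.49) at 150 to under 200 bp and 4.78 (4.50 to 5.07) at 200 to under 250 bp. Among the broad classes it was lowest at 250 to under 300 bp, with 3.86 (3.65 to 4.08), highest at 300 to under 400 bp, with 8.53 (8.04 to 9.05), and 5.33 (4.86 to 5.85) at 400 bp or more. In shorter peaks it ranged from 4.81 (4.72 to 4.90) at 32 to under 50 bp to 9.84 (9.49 to 10.2) at 80 to under 100 bp. The share with negative strand reads ran the other way, with 33.8% (29.5 to 38.4) at 250 to under 300 bp and 18.6% (15.9 to 21.4) at 300 to under 400 bp. These last classes are next to each other in length, with 91.0% and 98.0% of peaks crossed and medians of 35 and 39 positive reads.

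**Figure D4:**
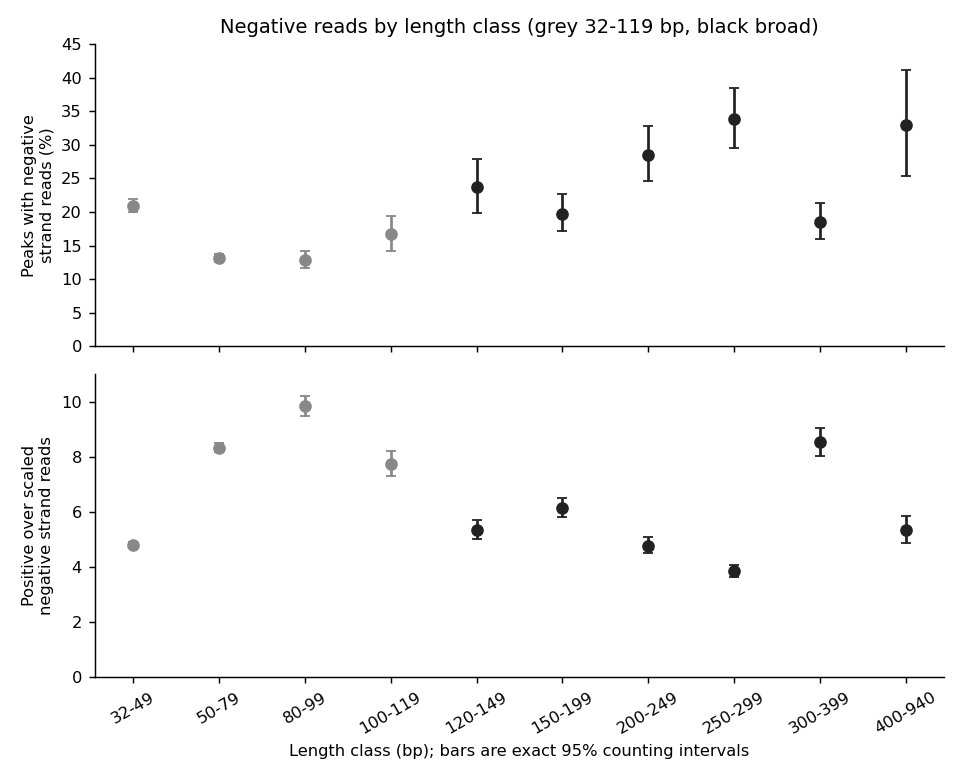
Share of peaks with negative strand reads (upper panel, %) and summed positive over scaled negative strand reads (lower panel) by length class in bp, with exact 95% counting intervals, broad classes in black and the classes of 32 to under 120 bp in grey. Among broad classes, 250 to under 300 bp has the lowest ratio (3.86) and 300 to under 400 bp the highest (8.53).

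The peaks that do have negative reads were also counted by their own ratios. Of the 764 broad peaks, 193 (25.3%) had a ratio of 1 or less, where the list has 35.1%, and 1141 of the 3411 shorter peaks (33.5%) did. A ratio of 2 or more was found for 323 of the broad peaks (42.3%), where the list has 33.1%, and for 1164 of the shorter ones (34.1%). With more positive reads per peak, the same number of negative reads gives a higher ratio. The other 2425 broad peaks had no negative strand read; against a floor of 3 negative reads, equal to 9.96 positive reads, the positive set was higher by at least 3.51-fold at the median (quartiles 2.91 and 4.22). For 18391 shorter peaks the median bound was at least 2.71-fold. The bound is a peak's positive strand reads over a constant, so it restates those reads. Every peak in the list has a deposited log2 fold of 2.27 or more, with the positive set higher. Ratios and bounds above 1 therefore partly go with being listed and are not a separate measure of wild-type over RAP1-deleted signal. How far the listing sets them was not tested.

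Because reads and length move together, negative reads and neighbours were also set side by side within equal ranges of positive reads. The gap in the share with negative reads was present at 20 to 29 reads, with 17.5% (14.7 to 20.7) in broad peaks and 12.3% (11.7 to 12.8) in the shorter ones. At 30 to 39 reads it was 20.9% (18.7 to 23.3) in broad and 17.6% (16.7 to 18.6) in shorter peaks. At 40 to 49 reads the shares were 24.6% (21.6 to 27.9) in broad and 24.8% (22.7 to 27.0) in shorter peaks, and at 50 to 99 reads 39.5% (35.1 to 44.1) in broad and 39.1% (35.4 to 43.0) in shorter ones. In these 2 ranges a difference in that share was thus not detectable at this depth. The end ranges hold few peaks. At 12 to 19 reads the order was turned, with 18.99% (11.03 to 29.4) of 79 broad and 89.5% (66.9 to 98.7) of 19 shorter peaks, and at 100 reads or more it was 9 of 12 broad (42.8 to 94.5%) and 6 of 9 shorter peaks (29.9 to 92.5%).

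The ratio within equal reads changed its order. It was 5.74 (5.37 to 6.14) in broad and 7.60 (7.47 to 7.73) in shorter peaks at 20 to 29 reads, and 6.02 (5.76 to 6.29) in broad against 7.02 (6.87 to 7.17) in shorter peaks at 30 to 39. At 40 to 49 reads it was 6.46 (6.13 to 6.81) in broad and 5.97 (5.77 to 6.18) in shorter peaks, and at 50 to 99 reads 4.84 (4.61 to 5.09) in broad and 5.42 (5.18 to 5.66) in shorter peaks. Within the broad peaks the arrangement of the modes kept its order over these 4 ranges, from 20 to 99 reads. Crossed peaks had ratios of 5.09, 5.14, 5.23 and 4.03 from the lowest range to the highest, and uncrossed peaks had 15.1, 8.32, 9.07 and 6.20. At 100 reads or more the order was turned, with 5.70 (4.15 to 8.04) in 7 crossed and 2.90 (2.27 to 3.75) in 5 uncrossed peaks, and at 12 to 19 reads all 79 broad peaks were crossed. Broad peaks had a ratio of 3.56 (3.02 to 4.21) at 12 to 19 reads, against 1.39 (1.13 to 1.71) in shorter ones, and 3.91 (3.22 to 4.78) at 100 reads or more, against 6.68 (5.14 to 8.82) in shorter ones.

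The longest members were all crossed. The longest, on chromosome 1 from 162969432 to 162970371, is 940 bp long and holds 145 positive reads, 42 of them in its highest window. Its reverse window lies 478 bp and its forward window 556 bp after the left edge, and the strand ratio is 2.75 (1.61 to 5.05). Coordinates are those of the list, whose build is mm9. The 10 longest run from 550 to 940 bp and hold 65 to 145 positive reads, at 0.104 to 0.162 reads per bp. Of these, 4 had no negative strand read, among them a 625 bp peak on chromosome 15 from 53002804 to 53003428 with 65 positive reads (at least 6.53-fold higher) and a 578 bp peak on chromosome 4 from 108694300 to 108694877 with 78 (at least 7.83-fold). The modes of the 578 bp peak overlap by 269 bp. At the other end, the 580 bp peak on chromosome 17 from 23811267 to 23811846 had 88 positive and 33 negative strand reads, a ratio of 0.803 (0.533 to 1.24).

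The best-ranked broad peaks were shorter and denser. The 10 best hold ranks 8 to 111, lengths of 120 to 423 bp and 67 to 225 positive reads. A 237 bp peak on chromosome 3 from 8246273 to 8246509 has 115 positive reads, 98 of them in its highest window, and a strand ratio of 14.8 (3.98 to 124) from 2 negative reads. On chromosome 17 from 53291729 to 53291957, a 229 bp peak has 10 forward against 62 reverse reads, the most uneven of the 10, with a ratio of 7.23 (2.38 to 35.9). The 129 bp peak on chromosome 13 from 13563736 to 13563864 has 67 positive reads and no negative one (at least 6.73-fold). Of the 10, 4 lie in 1 dense group near the proximal end of chromosome 11, with strand ratios from 1.05 (0.665 to 1.71) to 5.66 (2.34 to 17.8).

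Few broad peaks were dense. The highest density was 1.08 reads per bp, in a 209 bp peak on X from 73843980 to 73844188. The next 4 were 120 to 138 bp long and had 0.721 to 1.07 reads per bp. One of them, on chromosome 8 from 108673853 to 108673990, had 108 positive reads over the peak, 110 in the strand windows and no negative one (at least 11.04-fold from the strand reads), yet its deposited rank is 4292, with 32 reads in its highest window.

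The 5 broad peaks with the most negative strand reads had 33 to 46 of them, and all 5 had ratios under 1. Negative reads are the denominator of the ratio, so low ratios go with how these 5 were picked. The lowest was 0.266 (0.157 to 0.447) in a 164 bp crossed peak on chromosome 7 from 13547056 to 13547219, where 30 positive stood against 34 negative strand reads. On chromosome 15 from 74916542 to 74916752, 80 positive against 46 negative reads gave 0.524 (0.360 to 0.770). On chromosome 6 from 31003435 to 31003614, 70 against 34 gave 0.620 (0.406 to 0.964). The whole-peak negative column lists 0 for all of these 3.

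Broad peaks were spread over the chromosomes much as the shorter ones were. Of the 24991 peaks of 32 bp or more, 12.8% were broad. On 18 of 20 chromosomes the exact interval of the share spans that value. Chromosome 9 lay above it, with 202 of 1337 (15.1%, 13.2 to 17.1), and X below it, with 28 of 353 (7.93%, 5.34 to 11.3). The value of chromosome 9 rests on the setting. Its interval spans that of the list with a minimum of 150 bp (12.7%, 10.98 to 14.6, list 10.99%), at a false discovery rate of 0.01 or less (7.58%, 5.82 to 9.67, list 7.04%) and with crossed peaks alone (9.85%, 8.26 to 11.6, list 8.63%). After 9 came chromosomes 19 and 11 (14.0% each), whose intervals overlap those of every other autosome. Before X came chromosomes 12 (11.03%) and 7 (10.98%). These 3 chromosomes are also those with the fewest peaks per Mb in the list, 2.84 on X, 6.91 on chromosome 7 and 8.41 on chromosome 12, and chromosomes 11 and 19 have the most, 18.4 and 17.5. Chromosome 9, first in broad share, has 13.5.

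**Figure D5:**
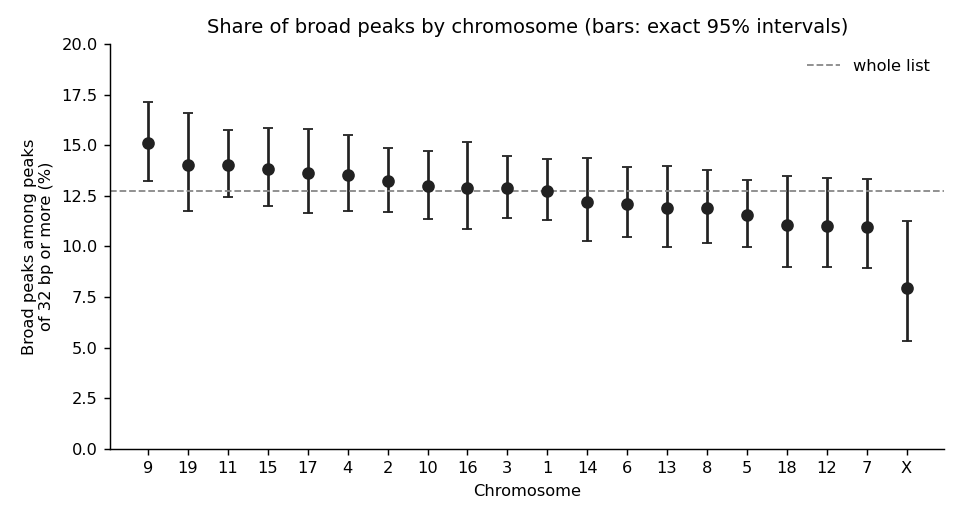
Broad peaks as a percentage of all peaks of 32 bp or more on each chromosome, in descending order, with exact 95% intervals and the value of the whole list (12.8%) as a dashed line. The intervals of chromosome 9 and X lie apart from the line, and the other 18 span it.

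The arrangement, length and reads of broad peaks differed modestly between chromosomes, and their strand ratios differed more. Crossed modes made up 54.5% to 70.7% of the broad peaks on autosomes and 18 of 28 (64.3%) on X. The median length per chromosome ran from 199 to 255.5 bp. Median reads per broad peak lay between 34 and 38.5, above the 26 to 28 of the shorter peaks on all 20 chromosomes, and density lay below on all 20. Strand ratios of the broad peaks ran from 3.99 on chromosome 17 and 4.13 on chromosome 11 to 9.87 on chromosome 13, where the shorter peaks had 4.94, 5.20 and 7.11.

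Broad peaks had closer neighbours. The nearest listed peak, of any length and measured from edge to edge, was under 10 kb away for 1290 broad peaks (40.5%, 38.7 to 42.2), where the whole list has 34.6%, and for 7378 of the shorter ones (33.8%, 33.2 to 34.5). The median gap was 14.6 kb for broad peaks (interquartile range 4.49 to 35.6) and 18.8 kb (6.40 to 46.0) for shorter ones. The share under 10 kb already rose below the minimum length, from 32.2% at 32 to under 50 bp to 39.5% (36.2 to 43.0) at 100 to under 120 bp. There the median gap was 15.1 kb. Broad classes ranged from 37.1% (32.8 to 41.5) at 200 to under 250 bp to 52.1% (43.6 to 60.4) at 400 bp or more. Under 1 kb the shares were 8.94% (7.97 to 9.98) of broad and 5.88% (5.57 to 6.20) of shorter peaks, where the whole list has 6.40%. The share under 10 kb was higher for broad peaks on 18 chromosomes and lower on 2, chromosome 9 (36.6% of broad against 37.3% of shorter peaks) and X (14.3% of broad against 14.8% of shorter peaks). Within 500 kb on either side of its centre, a broad peak had a median of 18 other peaks and a shorter one 16. The 2 arrangements of modes had like shares, 39.2% (37.1 to 41.4) in crossed and 42.7% (39.8 to 45.6) in uncrossed broad peaks.

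Reads moved with this measure too. At 30 to 39 positive reads, 37.1% of broad (34.4 to 39.9) and 35.1% of shorter peaks (33.9 to 36.3) had a neighbour under 10 kb. At 40 to 49 reads the shares were 42.2% (38.6 to 45.8) of broad and 42.2% (39.7 to 44.6) of shorter peaks. At 20 to 29 reads they were 35.3% (31.7 to 39.1) of broad and 31.6% (30.8 to 32.4) of shorter peaks, and at 50 to 99 reads 54.7% (50.1 to 59.3) of broad and 46.5% (42.6 to 50.3) of shorter peaks. The part that reads per peak play in the closer spacing was not tested.

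The nearest neighbour was itself broad at like shares in both classes. Where the nearest peak lay under 10 kb away, it was broad for 169 of 1290 broad peaks (13.1%, 11.3 to 15.1) and for 940 of 7378 shorter ones (12.7%, 11.99 to 13.5). Under 1 kb this was 43 of 285 broad peaks (15.1%, 11.1 to 19.8) and 197 of 1282 shorter ones (15.4%, 13.4 to 17.5).

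With peaks joined where at most 10 kb lay between them, the broad share was larger in larger groups. It was 1899 of 19868 single peaks (9.56%, 9.15 to 9.98), 750 of 6516 peaks in pairs (11.5%, 10.7 to 12.3), 419 of 3283 in groups of 3 or 4 (12.8%, 11.6 to 14.0) and 16.6% (13.9 to 19.4) of 731 in groups of 5 or more. The strand ratio of the broad peaks ran the other way, with 6.79 (6.55 to 7.05), 5.70 (5.42 to 6.0), 3.97 (3.75 to 4.21) and 3.18 (2.91 to 3.48) in the same order. The group with most broad members, on chromosome 11 from 3025355 to 3100104, has 11 of them among 72 peaks. They are 122 to 467 bp long, 8 are crossed, 10 have negative strand reads, and their summed ratio is 1.54 (1.30 to 1.82). These broad members belong to the class of 5 or more and bring 882 positive and 173 negative strand reads to its ratio. How far the last step, from 3.97 to 3.18, rests on this group was not tested. The ratio of shorter peaks by group size was not computed. A group on chromosome 9 from 102628958 to 102639299 consists of 4 broad peaks, 153 to 420 bp long and 2 of them crossed, with 176 positive and 5 negative strand reads, a ratio of 10.6 (4.46 to 33.1).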

How the data were processed

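The authors deposited 1 peak list for the whole series, on mm9 per the submitters' processing notes. How reads were aligned and filtered, and which program called peaks, is not given in the sources used here. Per the file headers, reads over the peak and in the strand windows are counts, not normalised, and the highest window of a peak is a coverage signal in reads. The deposited fold is a log2 value, the deposited false discovery rate is a q-value, and a deposited score named Delta was not interpreted. Peak length and mode distance were used as deposited, in bp.

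The scale of 3.32 between the read sets was solved from the deposited single-strand log2 folds, which add 1 to the positive and to the scaled negative reads. It came back within 0.001 from 140 of 141 entries that allow it. Depth per library is unknown here. Shares have exact Clopper-Pearson 95% intervals, and ratios of summed reads have exact conditional binomial 95% intervals. Gaps were measured from edge to edge to the nearest listed peak. No test between length classes was run, because peaks of 1 list are not replicates. The planned comparison of wild-type with RAP1-deleted libraries needs values per library and was not run. Regions named are the 10 longest, the 10 best-ranked, the 5 densest and the 5 with most negative strand reads, and some of each are described. The groups of peaks and the 199 bp length were picked with their values in view. The members and measures were chosen with earlier results of these data known. Genes and sequences at peaks need mm9 annotation, which was not used here. Calculations used Python 3.11.15, pandas 2.3.3 and SciPy 1.17.1, and were tested on simulated data.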

Additional observations from a re-analysis of the deposited data

How the results depend on the processing

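Of 86 recomputed values, 44 stayed within the main 95% interval and 42 did not, and the order of broad against shorter peaks was kept in 84. These counts do not measure robustness, because some outcomes were fixed. Another comparison class leaves the broad peaks' own values unchanged, and leaving out other chromosomes leaves the chromosome 9 share unchanged. The order of densities goes with the length rule, since length is the denominator. The kept orders include ratios as close as 5.67 and 5.73. The 2 turned orders came with uncrossed broad peaks alone, whose median mode distance was 166 bp (59 in shorter peaks) and whose strand ratio was 7.78 (7.02 in shorter peaks). In the same uncrossed peaks the density was 0.234 reads per bp (0.214 at 30 to 39 reads), the share with negative strand reads 19.8%, the broad share of chromosome 9 peaks 6.43% and the share with a neighbour under 10 kb 42.7%. Crossed peaks alone gave -38 bp, a ratio of 4.85, 0.122 reads per bp (0.117 at 30 to 39 reads), 26.3% and, on chromosome 9, 9.85%. A minimum of 100 bp gave 0.167 reads per bp (0.171 at 30 to 39 reads), 51.6% crossed, 22.5% with negative reads, a ratio of 5.99 and a chromosome 9 share of 18.1%. Its median mode distance was -1 bp with a 95% interval of -3 to 100, so that this median is poorly determined between the 2 arrangements. A minimum of 150 bp gave 0.133 (0.129 at 30 to 39 reads), -20.5 bp, 74.0% crossed and 12.7% on chromosome 9. A deposited false discovery rate at or under 0.01 gave 0.175 (0.160 at 30 to 39 reads), -6 bp, 61.8% crossed, 29.1% with negative reads, a ratio of 5.44, 7.58% on chromosome 9 and 45.1% with a neighbour under 10 kb. Leaving out peaks with negative reads gave 0.137 reads per bp, 62.6% crossed and 37.6% with a neighbour under 10 kb. Without chromosome 11 the ratio was 5.87, and with peaks of 29 to under 120 bp as comparison the chromosome 9 share was 12.4% and the ratio of 5.67 (5.53 to 5.82) in broad peaks stood against 5.73, so that the difference from 7.02 was lost. Density at 30 to 39 reads, 0.140 in the main setting, follows length nearly alone. The interval of chromosome 9 reached the list value with the minimum of 150 bp, the false discovery rate limit and the crossed peaks alone. Neighbours under 1 kb stood at 8.94% and under 100 kb at 94.3%. Without the 199 bp crossed peaks, 61.5% were crossed at 0.147 reads per bp. The cause of these changes was not tested, beyond the peaks each setting leaves in. Leaving out the group at the proximal end of chromosome 11, the split by modes and leaving out the 199 bp peaks were chosen after seeing the data.

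No paired analysis was possible because the list holds no values per library, and for that reason no replicate was left out in turn. Low read numbers limit single peaks: the median broad peak with negative reads has 7 of them.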

Other observations

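Along the chromosomes, from the first to the last listed peak in 10 equal parts, the broad share of peaks of 32 bp or more stayed between 11.5% (10.2 to 12.8) in part 6 and 14.1% (12.8 to 15.5) in part 9, counted from the proximal end. Part 10, at the distal end, had 13.2% (12.01 to 14.5), and part 1 had 12.1% (10.7 to 13.6).

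Adjacent broad peaks lay under 500 bp apart in 14 pairs, under 1 kb in 22 and under 10 kb in 100. The closest pair, on chromosome 19, is a 184 bp peak from 41994066 to 41994249 and a 264 bp peak from 41994251 to 41994514, with 1 bp between them, 24 and 36 positive reads, and 0 and 9 negative strand reads. The next pair, on chromosome 11 from 29592087 to 29592300 and from 29592333 to 29592601, is 32 bp apart and has 26 and 30 positive and 16 and 13 negative strand reads. On chromosome 6, peaks from 136481165 to 136481439 and from 136481512 to 136481777 are 72 bp apart, hold 37 and 40 positive reads, and have no negative strand reads.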
